A study of Mus musculus with 46 samples.

Results

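The p53 target genes followed here are Cdkn1a, Mdm2, Ccng1, Btg2, Trp53inp1, Gadd45a, Bax, Phlda3, Plk2 and Sesn1, a list of 10 genes. Each was read from the Affymetrix probe set that names that gene alone and has the highest mean over all arrays, with its other probe sets as a check. Of the 10 genes, 9 had such a probe set and all 9 passed the filter on low values, out of 18193 genes with a probe set and 13239 tested. No probe set in the annotation used here names Bax, which encodes a pore-forming protein of the mitochondrial cell death pathway, or Trp53, which encodes p53 itself, as its only gene, and neither was analysed here.

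RNA came from whole livers of male C57BL/6N mice aged 8 to 10 weeks. Treated mice were given carbon tetrachloride (CCl4) once, by intraperitoneal injection at 1.6 g/kg in olive oil. CCl4 is a solvent that hepatocytes around the central veins convert to a toxic radical. The treated groups hold 5 arrays each at 2 h and 8 h, 5 each at 1 d, 2 d and 4 d, 5 each at 6 d and 8 d, and the group at 16 d holds 6 arrays. Untreated mice, called time zero, gave the 5 control arrays. All 46 arrays share strain, sex and standard diet. Controls had neither injection nor oil, so a difference from control holds the effect of both beside that of CCl4. Whether arrays of a group are separate animals is not stated, so the spread behind each p-value could be technical, and the number of arrays limits the precision.

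p53 is a transcription factor that accumulates when DNA is damaged or cells are stressed, and it binds paired copies of a short half-site near its target genes. Cdkn1a (p21) inhibits cyclin-dependent kinases and halts the cell cycle, Ccng1 (cyclin G1) and Btg2 also act on proliferation, and Gadd45a takes part in growth arrest and DNA repair. Mdm2 is the ubiquitin ligase that marks p53 for destruction and so closes a feedback loop. Trp53inp1 promotes p53 activity and autophagy, Phlda3 restrains the kinase Akt, Plk2 is a polo-like kinase, and Sesn1 (sestrin 1) restrains mTORC1 signalling. Several of these genes, Btg2 and Gadd45a among them, can also be switched on without p53 by stress and growth factor signals.

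Promoter sequence from RefSeq (build GRCm38.p6), from 250 bases before to 50 after an annotated start, was available for 9 of the 10 genes in 11 windows. The 6 windows below hold a match to a p53 half-site or a cAMP response element in genes whose time courses are described next, read 5′ to 3′, and capitals mark the match. They lie at chr17:29090729-29091028, plus strand (Cdkn1a, the more upstream of its annotated starts), chr10:117710709-117711008, minus strand (Mdm2), chr11:40755237-40755536, minus strand (Ccng1), chr6:67037358-67037657, minus strand (Gadd45a), chr1:134079106-134079405, minus strand (Btg2) and chr13:110394794-110395093, plus strand (Plk2).
Cdkn1a: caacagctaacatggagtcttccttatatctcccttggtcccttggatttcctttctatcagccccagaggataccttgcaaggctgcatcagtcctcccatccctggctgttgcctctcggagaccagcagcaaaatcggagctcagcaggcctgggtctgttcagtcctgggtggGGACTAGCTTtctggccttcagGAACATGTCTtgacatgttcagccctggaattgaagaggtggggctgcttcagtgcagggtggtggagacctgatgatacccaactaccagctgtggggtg
Mdm2: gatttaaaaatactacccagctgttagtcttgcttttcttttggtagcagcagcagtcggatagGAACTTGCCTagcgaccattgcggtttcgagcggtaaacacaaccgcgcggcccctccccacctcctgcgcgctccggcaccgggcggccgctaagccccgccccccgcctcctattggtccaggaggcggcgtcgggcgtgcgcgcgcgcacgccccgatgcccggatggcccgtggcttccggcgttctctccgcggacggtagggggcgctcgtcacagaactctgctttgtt
Ccng1: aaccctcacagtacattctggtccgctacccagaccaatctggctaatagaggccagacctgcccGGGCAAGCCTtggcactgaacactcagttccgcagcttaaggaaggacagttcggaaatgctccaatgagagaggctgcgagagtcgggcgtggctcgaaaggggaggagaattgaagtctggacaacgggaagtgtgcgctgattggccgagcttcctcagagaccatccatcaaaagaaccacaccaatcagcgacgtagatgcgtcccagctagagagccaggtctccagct
Gadd45a: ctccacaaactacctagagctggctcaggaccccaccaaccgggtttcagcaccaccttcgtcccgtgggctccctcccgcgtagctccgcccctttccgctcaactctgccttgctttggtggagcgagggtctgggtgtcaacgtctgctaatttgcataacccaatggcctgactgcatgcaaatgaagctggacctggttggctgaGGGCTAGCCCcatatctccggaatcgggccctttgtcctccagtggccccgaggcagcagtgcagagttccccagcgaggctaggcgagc
Btg2: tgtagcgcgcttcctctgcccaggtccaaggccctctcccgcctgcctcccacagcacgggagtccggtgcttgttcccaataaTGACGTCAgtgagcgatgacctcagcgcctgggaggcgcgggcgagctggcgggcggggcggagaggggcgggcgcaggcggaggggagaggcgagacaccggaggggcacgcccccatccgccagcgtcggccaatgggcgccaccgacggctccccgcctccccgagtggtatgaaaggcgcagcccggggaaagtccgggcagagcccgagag
Plk2: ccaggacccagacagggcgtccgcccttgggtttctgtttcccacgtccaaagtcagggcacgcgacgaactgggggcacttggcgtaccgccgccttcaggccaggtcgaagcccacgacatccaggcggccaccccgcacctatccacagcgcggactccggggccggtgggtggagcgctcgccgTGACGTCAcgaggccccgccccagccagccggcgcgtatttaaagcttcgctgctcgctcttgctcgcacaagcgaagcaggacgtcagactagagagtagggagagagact

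An exact match to the p53 half-site consensus stood in 6 of the 9 genes with a window and in 8.36% of all 32851 promoters in the table. Cdkn1a had 2 such matches, at -73 to -64 and -51 to -42 from the start. The others were in Mdm2 (-186 to -177), Ccng1 (-185 to -176), Gadd45a (-40 to -31), Bax (-201 to -192) and Sesn1 (-173 to -164). The cAMP response element TGACGTCA stood in Btg2 (-166 to -159) and Plk2 (-62 to -55) and in 1.79% of all promoters. The AP-1 site TGANTCA and the serum response element, held by 7.81% and 1.63% of all promoters, were in 0 of the 9 genes. A gene was counted if any of its windows matched, whereas the shares of all promoters count single windows. Cdkn1a and Sesn1 each have a further window without a p53 half-site match. Both strands were searched, the printed matches do not overlap, and a match is a run of letters and not a shown binding site.

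Arrays of 1 group correlated across genes with r from 0.947 to 0.993. At 1 d, arrays 3 to 5 resembled each other (0.991 to 0.993), whereas arrays 1 and 2 stood apart from them (0.947 to 0.97) and from each other (0.947), so results at 1 d are also given without arrays 1 and 2. The Gapdh 3 prime minus 5 prime value, a sign of RNA integrity on the log2 scale, averaged 0.136 ± 0.134 at 2 h, 0.169 ± 0.0925 at 1 d and 0.198 ± 0.0346 at 2 d, against 0.347 ± 0.0646 in controls (SD, n = 5 each). The mean log2 value of 7 hepatocyte markers was 12.47 to 13.22 at 1 d, against 13.23 to 13.32 in controls, and 6 of the 7 were called lower. Of 6 monocyte and macrophage markers 3 were higher at 1 d and 4 at 2 d, of 4 neutrophil markers 2 were higher at both times, of 8 stellate cell markers 4 and of 8 Kupffer cell markers 4 were higher at 2 d. Among all genes 25% were higher and 25.1% lower at 1 d, and 21.1% were higher at 2 d. Of 6 endothelial markers 5 were lower and 1 higher at 2 h. Of the Kupffer cell markers 3 were lower at 2 h and 7 at 8 h, when the means of Plk2 and Sesn1 were lowest. Plk2 was about as low at 2 h (mean 6.10, against 6.03 at 8 h) and Sesn1 at 1 d (6.51, against 6.45 at 8 h). At 8 h 5 of 6 endothelial markers were lower and 1 higher, and 1 of 6 monocyte and macrophage markers went each way. Also lower at 8 h were 3 of 8 stellate cell and 2 of 7 hepatocyte markers. Among all genes 19.9% were lower at 2 h and 24.2% at 8 h. At 4 d, when Ccng1, Phlda3 and Sesn1 were called higher, 6 of 8 Kupffer cell and 3 of 6 monocyte and macrophage markers were higher. So were 3 of 6 endothelial and 3 of 8 stellate cell markers, against 4.74% of all genes. Markers of cholangiocytes (3 tested), T and NK cells (4) and B cells (3) had at most 1 member called in a direction at any time against control. The part of cell types and of RNA quality in the results below was not tested. In whole liver, fewer cells of a type and less RNA per cell cannot be told apart.

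Over all genes 24.3% of the calls at 2 h were higher (37.9% with quantile and 47.8% with cyclic loess normalization). At 2 d the share was 52.7% (41.6% with quantile normalization, 62.2% and 55.1% with equal array medians and with cyclic loess normalization).

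The question was which of the genes were high at 2 h and which at 1 d to 2 d. At 2 h 6 of the 9 genes were called higher than control (Cdkn1a, Mdm2, Btg2, Trp53inp1, Gadd45a and Phlda3) and 2 lower (Ccng1 and Plk2), at a limma adjusted p under 0.05. Of all genes tested 6.41% were higher and 19.9% lower at that time. At 8 h 5 were higher and 2 (Plk2 and Sesn1) lower, against 17.7% and 24.2% of all genes. At 1 d 5 were higher and 1 (Sesn1) lower, against 25% and 25.1% of all genes.

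At 2 d 6 were higher (Cdkn1a, Mdm2, Ccng1, Btg2, Gadd45a and Phlda3) and 0 lower, against 21.1% and 18.9%. At 4 d 3 were higher (Ccng1, Phlda3 and Sesn1) and 0 lower, against 4.74% and 2.21%. From 6 d on 0 of the 9 were called in either direction by limma. Over all genes the calls were then 0.0227% higher and 0% lower at 6 d, 0.068% and 0.0755% at 8 d, and 0.415% and 1.1% at 16 d. At an unadjusted limma p under 0.05 there was 1 gene at each of these times, Plk2 lower at 6 d (-0.44 ± 0.17) and 8 d (-0.42 ± 0.17) and Phlda3 higher at 16 d.

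The median log2 fold change of the 9 genes was 0.59 at 2 h, 0.56 at 8 h, 0.57 at 1 d and 0.55 at 2 d, where the median of all genes lay between -0.04 and -0.03. All these comparisons share the 5 control arrays. The genes followed different courses. Btg2, Gadd45a and Trp53inp1 were highest at 2 h. In the probe sets used, Cdkn1a and Mdm2 stayed at similar levels from 2 h to 2 d (log2 fold changes 1.62 to 1.79 and 0.44 to 0.59). Both were called higher at each of these times, as were Btg2 and Gadd45a. Ccng1 and Phlda3 were highest at 2 d. The lowest means of Plk2 and Sesn1 were at 8 h, with Plk2 about as low at 2 h and Sesn1 at 1 d.

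**Figure D1:**
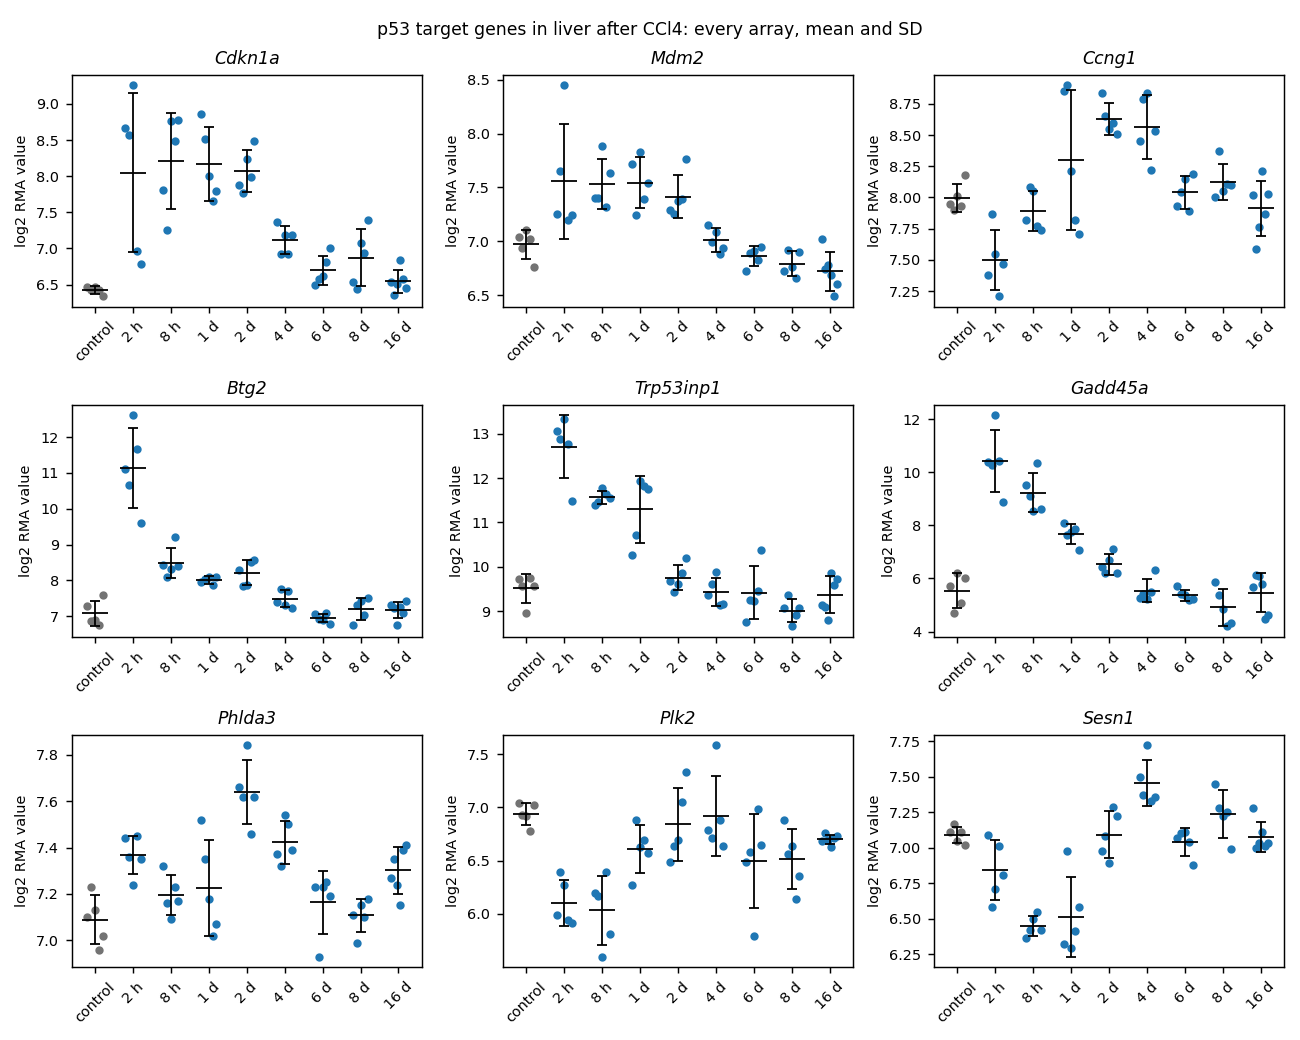
Log2 RMA values (vertical axis) of the 9 p53 target genes in control livers and at 8 times after CCl4 (horizontal axis). Points are arrays (grey for control), bars the mean and bars with caps the SD; Btg2 at 2 h sits between 9.60 and 12.61, above all controls, and Ccng1 at 2 h between 7.21 and 7.87, below all controls.

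Gadd45a had the largest change of the 9 genes. Its log2 values were 10.38, 10.26, 12.14, 10.42 and 8.87 at 2 h, against 5.73, 4.69, 6.20, 5.06 and 6.03 in controls. Every array at 2 h was far above every control, with array 3 the highest and array 5 the lowest. The log2 fold change was 4.87 ± 0.39 (29.2-fold, adjusted p = 1.68e-12, n = 5 per group, SE from limma as for all log2 fold changes). It was 3.67 ± 0.39 at 8 h and 2.14 ± 0.39 at 1 d (2.03 without arrays 1 and 2), with all 5 arrays above all controls at both times. At 2 d it was 0.98 ± 0.39 (adjusted p = 0.0426), with 4 of 5 arrays above all controls. That last call did not hold without any 1 of control arrays 1, 2 and 4 or arrays 1, 3 and 4 at 2 d (adjusted p from 0.0523 to 0.139), nor with a variance trend and robust variances together (0.0525). By 4 d Gadd45a was 5.24 to 6.31, against 4.69 to 6.20 in controls. Only 30 of 46 arrays exceeded the median of all values for this probe set, so control and late levels are near the low end of the scale.

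Btg2, an antiproliferative protein that is also an early response gene, was 11.11, 10.66, 12.61, 11.67 and 9.60 at 2 h, against 7.28, 6.85, 6.88, 6.75 and 7.60 in controls. The groups did not overlap, and as for Gadd45a array 3 was highest and array 5 lowest at 2 h. The log2 fold change was 4.06 ± 0.27 (16.6-fold, adjusted p = 1.42e-14). By 8 h the values had dropped to 8.10 to 9.21, and the log2 difference between 8 h and 2 h was -2.64 ± 0.27 (adjusted p = 4.29e-10). They then stayed at 7.86 to 8.10 at 1 d and 7.84 to 8.56 at 2 d, all above all controls (log2 fold changes 0.93 ± 0.27 and 1.14 ± 0.27). The second probe set of Btg2 had 3.63 ± 0.27 at 2 h, but 0.46 ± 0.27 at 1 d and 0.57 ± 0.27 at 2 d, which were not called (adjusted p = 0.204 and 0.116). At 4 d the gene was no longer called against control (0.41 ± 0.27, adjusted p = 0.451).

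Trp53inp1, a stress protein that supports p53 activity, was already well expressed in controls, at 9.72, 9.56, 8.97, 9.74 and 9.57. At 2 h it was 13.05, 12.87, 13.34, 12.77 and 11.49, a log2 fold change of 3.19 ± 0.28 over those controls (9.13-fold, adjusted p = 1.28e-11). No array at 2 h came near the controls. The change was 2.05 ± 0.28 at 8 h and 1.79 ± 0.28 at 1 d, both with all 5 arrays above all controls. At 1 d arrays 3 to 5 lay at 11.75 to 11.93 and arrays 1 and 2 at 10.27 and 10.71, and without those 2 arrays the change was 2.32 ± 0.28. Trp53inp1 was 9.43 to 10.19 at 2 d, overlapping the controls (0.24 ± 0.28, adjusted p = 0.501), and it was lower at 2 d than at 1 d (-1.54 ± 0.28, adjusted p = 2.69e-05). Its weaker second probe set had 1.33 ± 0.17 at 2 h and 0.47 ± 0.17 at 8 h, and 0.36 ± 0.17 at 1 d was not called (adjusted p = 0.0991), while the mean of both was called at 8 h and 1 d (1.26 and 1.07).

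Cdkn1a, the cell cycle inhibitor, split at 2 h. Arrays 1 to 3 had 8.66, 8.57 and 9.26 and arrays 4 and 5 had 6.97 and 6.79, against 6.46, 6.43, 6.47, 6.43 and 6.34 in controls. All 5 were above all controls, but the SD at 2 h was 1.10, against 0.0502 in controls. Over all genes, arrays 4 and 5 at 2 h resembled their group as closely as the other 3 did (mean r with the group 0.984 each, against 0.981 to 0.987). The log2 fold change was 1.62 ± 0.30 at 2 h (3.08-fold, adjusted p = 7.64e-05), 1.79 ± 0.30 at 8 h, 1.74 ± 0.30 at 1 d (1.39 without arrays 1 and 2) and 1.64 ± 0.30 at 2 d (adjusted p = 2.29e-05).

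At 1 d Cdkn1a was 8.86, 8.52, 8.00, 7.66 and 7.79 and at 2 d 7.88, 7.76, 8.24, 7.99 and 8.48. The spread narrowed while the mean held, and no array at these times fell below 7.66. At 4 d the values were 6.92 to 7.37, all above all controls, with a log2 fold change of 0.69 ± 0.30 that missed the threshold (adjusted p = 0.176). It passed in a fit of control and 4 d alone (0.000145) and with array weights (0.0335). The second probe set gave 1.45 ± 0.31 at 2 h, 1.69 ± 0.31 at 8 h and 1.60 ± 0.31 at 1 d.

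Mdm2, the ligase that degrades p53, was 7.25, 7.65, 8.45, 7.20 and 7.24 at 2 h, against 7.04, 6.94, 7.10, 7.02 and 6.76 in controls. Array 3 was far the highest, array 2 came next and the other 3 lay just above the controls. The log2 fold change was 0.59 ± 0.15 (adjusted p = 0.00241, and 0.36 with adjusted p = 0.0217 without array 3), 0.56 ± 0.15 at 8 h, 0.57 ± 0.15 at 1 d (0.62 without arrays 1 and 2) and 0.44 ± 0.15 at 2 d (adjusted p = 0.0138). At 2 d arrays 1 to 4 had 7.25 to 7.39 and array 5 had 7.76, and without array 5 the change at 2 d was 0.36 and not called (adjusted p = 0.0622). The second probe set of Mdm2 was called at 2 h (0.62 ± 0.12) but not at 2 d (0.21 ± 0.12, adjusted p = 0.194), and the mean of all probe sets was smaller at 8 h and 1 d (0.34 and 0.26, both called) and not called at 2 d (0.14, adjusted p = 0.247). Mdm2 was 6.88 to 7.15 at 4 d, overlapping the controls.

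Ccng1, cyclin G1, was 7.38, 7.87, 7.55, 7.21 and 7.47 at 2 h, against 7.95, 7.90, 8.01, 7.93 and 8.18 in controls. All 5 arrays at 2 h were below all controls, array 2 narrowly so (-0.50 ± 0.15, adjusted p = 0.0137). The call ended with cyclic loess normalization (adjusted p = 0.0648), with the Gapdh value as a covariate (0.17) and without array 4 at 2 h (0.0556). The other probe sets had -0.25 ± 0.15 and -0.31 ± 0.11 at 2 h and were not called (adjusted p = 0.305 and 0.0562).

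At 2 d Ccng1 stood at 8.84, 8.65, 8.55, 8.60 and 8.51, above every control, with a log2 fold change of 0.63 ± 0.15 (1.55-fold, adjusted p = 0.00106), and all 3 probe sets were called. At 1 d arrays 1 and 2 had 8.85 and 8.90, against 7.71 to 8.21 on arrays 3 to 5. The change at 1 d was 0.30 ± 0.15 (adjusted p = 0.0963), and -0.08 ± 0.13 without arrays 1 and 2. It was called higher with the mean of all probe sets (0.33, adjusted p = 0.00925), by its probe set with the lowest mean (0.41 ± 0.11, 0.00333) and without array 4 or 5 at 1 d (0.0226 and 0.0118), so a rise at 1 d depends on the probe set and on which arrays are kept. The gene was still high at 4 d (0.57 ± 0.15, adjusted p = 0.0134, and 0.0562 without array 3 at 4 d), though its second probe set was not called there (0.32 ± 0.15, adjusted p = 0.293).

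Phlda3, the Akt inhibitor, was 7.44, 7.36, 7.24, 7.45 and 7.35 at 2 h, against 7.10, 7.23, 7.13, 6.96 and 7.02 in controls. The groups touched without overlapping, and the log2 fold change was 0.28 ± 0.08 (adjusted p = 0.00653). It was 0.11 ± 0.08 at 8 h and 0.14 ± 0.08 at 1 d (0.00 without arrays 1 and 2), neither called. At 2 d all 5 arrays (7.66, 7.62, 7.84, 7.46 and 7.62) were above all controls and above all arrays at 2 h, with a log2 fold change of 0.55 ± 0.08 over control (1.47-fold, adjusted p = 2.69e-07). It was 0.34 ± 0.08 at 4 d. At 16 d 5 of 6 arrays exceeded all controls, but the change of 0.21 ± 0.07 was not called (adjusted p = 0.118, and 0.0416 with array weights).

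Plk2, the polo-like kinase, was 5.99, 6.39, 6.27, 5.94 and 5.91 at 2 h, against 7.04, 6.93, 6.92, 6.78 and 7.02 in controls. Every array at 2 h and at 8 h (5.60 to 6.39) lay below every control. The log2 fold changes were -0.84 ± 0.17 (adjusted p = 0.000334) and -0.90 ± 0.17 (adjusted p = 2.9e-05). At 1 d it was -0.33 ± 0.17 (adjusted p = 0.106, and 0.0253 in a fit of the 2 groups alone). Its second probe set, above the median of all values on 16 arrays, had -0.10 ± 0.17 at 2 h and was not called (adjusted p = 0.766), so the decrease rests on 1 probe set. The mean of both was called at 2 h and 8 h (-0.47 and -0.57).

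Sesn1, the mTORC1 inhibitor, was 6.36, 6.42, 6.50, 6.55 and 6.42 at 8 h, against 7.11, 7.17, 7.05, 7.11 and 7.02 in controls. The groups lay far apart, with a log2 fold change of -0.64 ± 0.10 (adjusted p = 1.02e-06). It was -0.58 ± 0.10 at 1 d (-0.67 without arrays 1 and 2) and -0.25 ± 0.10 at 2 h, which was not called (adjusted p = 0.0611). It was called lower at 2 h with equal array medians (0.0317), with array weights (0.0491) and without arrays 1 and 2 at 1 d (0.0279). Leaving out array 2 at 1 d alone (0.0303) or array 1 or 4 at 2 h (0.0265 and 0.0459) also gave that call. At 2 d it was back among the controls (6.89 to 7.29), and at 4 d it was above them at 7.50, 7.37, 7.72, 7.33 and 7.36 (0.37 ± 0.10, adjusted p = 0.0168, and 0.083 without array 3 at 4 d). Its probe set ends in _s_at, a class that can read several transcripts, so its level is uncertain. Other probe sets of the gene gave -1.02 ± 0.16 and -0.96 ± 0.13 at 8 h, and the first of these was not called at 4 d (0.46 ± 0.16, adjusted p = 0.114). At 2 h the first was not called (-0.335 ± 0.159, adjusted p = 0.175). The second, above the median of all values on 5 arrays, was called lower at 2 h (-0.377 ± 0.128, adjusted p = 0.0425).

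**Figure D2:**
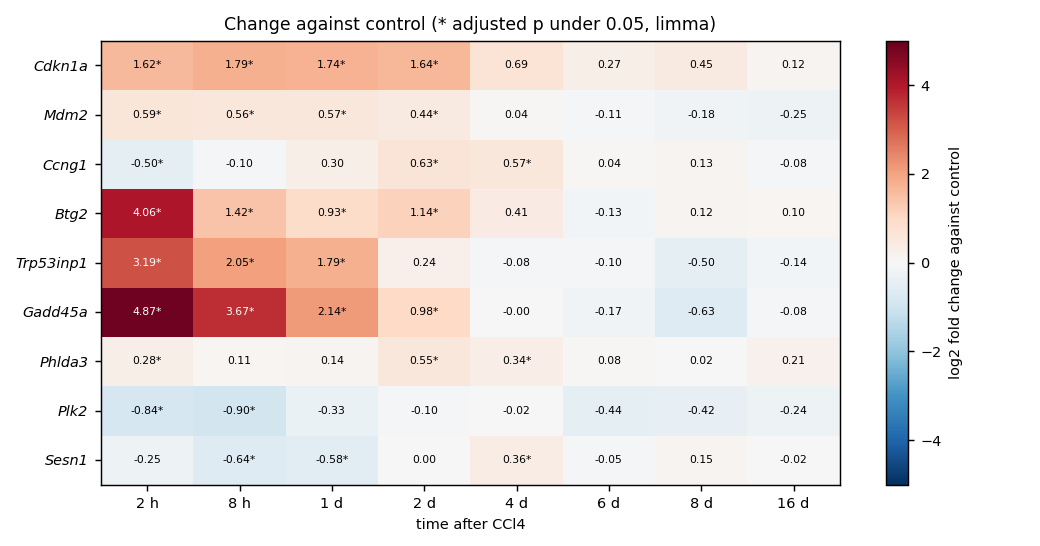
Log2 fold change against control (colour and printed value) of the 9 p53 target genes (vertical axis) at 8 times after CCl4 (horizontal axis), with an asterisk where the adjusted p is under 0.05. Gadd45a declines over 4.87, 3.67, 2.14 and 0.98 from 2 h to 2 d, while Cdkn1a stays between 1.62 and 1.79.

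The difference between the late and the early time was tested itself. At 1 d against 2 h 2 genes were higher and 4 lower, where 60% of all genes tested differed. At 2 d against 2 h 4 were higher and 3 lower, where 59.4% differed, so the members' counts are near that share. Btg2, Trp53inp1 and Gadd45a were lower at 2 d than at 2 h by -2.92 ± 0.27, -2.95 ± 0.28 and -3.89 ± 0.39, with every array at 2 d below every array at 2 h. Ccng1 (1.13 ± 0.15, adjusted p = 5.58e-08), Phlda3 (0.27 ± 0.08, adjusted p = 0.00294) and Plk2 (0.74 ± 0.17, adjusted p = 0.000369) were higher at 2 d than at 2 h on all 5 arrays. Unlike the other 2, Plk2 was not called against control at 2 d (-0.10 ± 0.17, adjusted p = 0.674), after its low level at 2 h. Its second probe set had -0.25 ± 0.17 at 2 d against 2 h, not called (adjusted p = 0.219). With the mean of all probe sets Plk2 was not called (0.25 at 2 d and 0.17 at 1 d against 2 h, adjusted p = 0.0736 and 0.222). Sesn1 was higher by 0.25 ± 0.10 (adjusted p = 0.0314) with 2 of 5 arrays above all arrays at 2 h, and this call ended without arrays 2, 3 or 5 at 2 h or 4 or 5 at 2 d.

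Quantile normalization ended the calls of Phlda3 (0.10, adjusted p = 0.301) and Sesn1 (0.14, adjusted p = 0.248) at 2 d against 2 h. For Sesn1 6 of 14 settings ended it, also cyclic loess, the largest-variance probe set, only the 2 groups, array weights and the Gapdh covariate (adjusted p from 0.0543 to 0.16). Cdkn1a differed by 0.02 (95% confidence interval -0.58 to 0.62) and Mdm2 by -0.14 (-0.44 to 0.15) between 2 d and 2 h. Mdm2 was called lower at 2 d than at 2 h with the mean of all probe sets (-0.30, adjusted p = 0.00655). That mean includes a probe set above the median of all values on 0 arrays. The second probe set of Mdm2, above it on all 46, was itself lower (-0.42 ± 0.12, limma adjusted p = 0.00404). At 1 d against 2 h Ccng1 was higher by 0.80 ± 0.15 (0.42 without arrays 1 and 2 at 1 d), and Trp53inp1 was lower by -1.41 ± 0.28 (-0.87 without them). Phlda3 at 1 d against 2 h was -0.14 ± 0.08, not called. It was called lower without those arrays (-0.28, adjusted p = 0.00345) and with quantile normalization, cyclic loess normalization and array weights (-0.28 to -0.22).

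**Figure D3:**
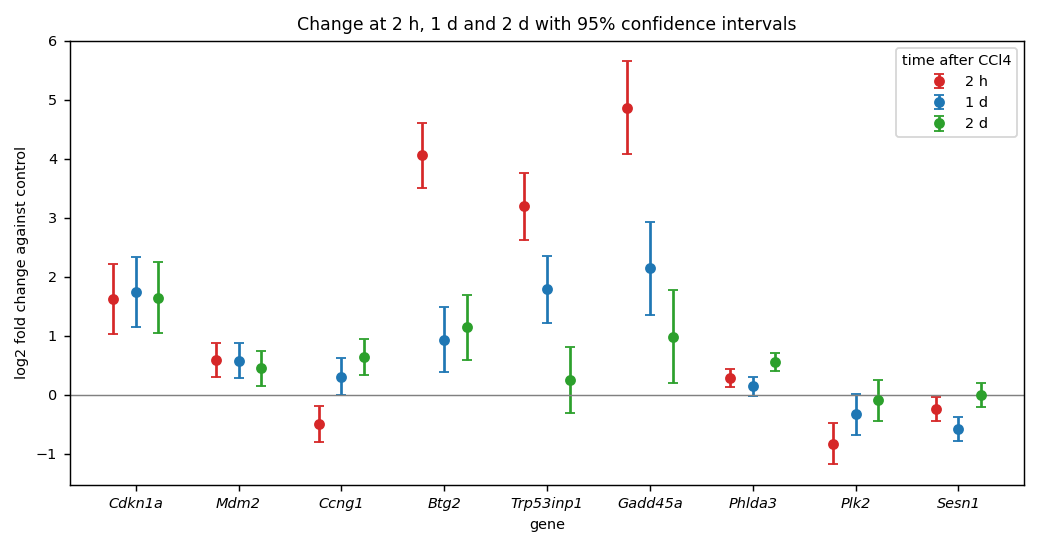
Log2 fold change against control (vertical axis) of the 9 p53 target genes (horizontal axis) at 2 h, 1 d and 2 d after CCl4, with 95% confidence intervals from limma. For Btg2, Trp53inp1 and Gadd45a the value at 2 h is the highest of the 3, for Ccng1 and Phlda3 the value at 2 d (0.63 and 0.55).

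Step by step, 1 gene (Ccng1) was higher and 4 (Btg2, Trp53inp1, Gadd45a and Sesn1) lower at 8 h than at 2 h, where 35.9% of all genes differed. The calls of Ccng1 (0.40 ± 0.15, adjusted p = 0.0403) and Gadd45a (-1.19 ± 0.39, adjusted p = 0.0149) ended without single arrays, Ccng1 without arrays 1, 3, 4 or 5 at 2 h or 2 or 3 at 8 h, and Gadd45a without array 3 at 2 h (-0.76) or 3 or 5 at 8 h. Between 8 h and 1 d Ccng1 and Plk2 were higher and Gadd45a lower at 1 d, where 31.7% of all genes differed. Ccng1's step to 1 d (0.41 ± 0.15, adjusted p = 0.0385) was 0.02 without arrays 1 and 2 at 1 d, and Plk2's (0.57 ± 0.17, adjusted p = 0.00852) was 0.27 with the mean of all probe sets (0.0822). Between 1 d and 2 d Phlda3 (0.41 ± 0.08) and Sesn1 (0.58 ± 0.10) were higher and Trp53inp1 and Gadd45a lower at 2 d, where 32.4% differed. Gadd45a's step (-1.16 ± 0.39) was not called without arrays 1 and 2 at 1 d (-1.05, adjusted p = 0.0749), and Ccng1's (0.33 ± 0.15, adjusted p = 0.0979) then was (0.71, adjusted p = 4.02e-05).

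At 4 d against 2 d Cdkn1a (-0.95 ± 0.30, adjusted p = 0.0127), Mdm2, Btg2 and Phlda3 were lower and Sesn1 higher (0.37 ± 0.10), where 31.3% of all genes differed. The calls of Mdm2 (-0.40 ± 0.15, adjusted p = 0.0312), Btg2 (-0.73 ± 0.27, adjusted p = 0.0383) and Phlda3 (-0.22 ± 0.08, adjusted p = 0.0301) ended without single arrays at 2 d or 4 d (adjusted p up to 0.12, 0.101 and 0.117). With the mean of all probe sets Mdm2 was -0.08 (adjusted p = 0.559) and Btg2 -0.53 (0.125), and with quantile normalization Phlda3 was -0.11 (0.315). Gadd45a was lower at 4 d by -0.98 ± 0.39, just short of a call (adjusted p = 0.0516), and was called in 6 of 14 other settings (down to 0.00537 in a fit of only the 2 groups). Cdkn1a kept its call there under every alternative tried.

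Ranked by group mean, neighbouring groups mostly overlapped. For Btg2 2 h lay above 8 h and 1 d above 4 d without overlap, for Trp53inp1 1 d above 2 d, for Gadd45a 8 h above 1 d, and for Mdm2 2 d above 4 d. For Cdkn1a, Ccng1, Phlda3, Plk2 and Sesn1 each group overlapped the next one in rank.

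Over the 9 group means Trp53inp1 and Gadd45a ran together (r = 0.98), as did Cdkn1a and Mdm2 (r = 0.95), whereas Cdkn1a and Ccng1 did not (r = 0.05). Within groups, with each group's mean removed over the 46 arrays, r was 0.57 for Cdkn1a and Mdm2 and 0.05 for Trp53inp1 and Gadd45a. These are descriptions, and arrays of a group share their time point. The genes with the most similar courses were sought among tested genes, leaving out the members and genes with clone or predicted-gene names. For Gadd45a (r = 0.995 over 9 group means) and Trp53inp1 (0.989) the first was Atf3, a stress-induced transcription factor, followed for both by Maff and Chaserr. The nearest 3 were Orc4, Actg1 and Ier5 for Cdkn1a (0.967 to 0.971), and Srek1, Lrch3 and Cdc5l for Mdm2 (0.962 to 0.971). For Btg2 they were Mideas, Junb and Ddit4 (0.98 to 0.984), for Ccng1 Ccnt2, Ppp1cc and Glg1 (0.975 to 0.983), and for Phlda3 Fes, Adam8 and Adamts9 (0.904 to 0.963). For Plk2 they were Rnf181, Sdc1 and Cyp4b1 (0.95 to 0.96) and for Sesn1 Prxl2b, Pemt and Aifm1 (0.983 to 0.986).

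**Figure D4:**
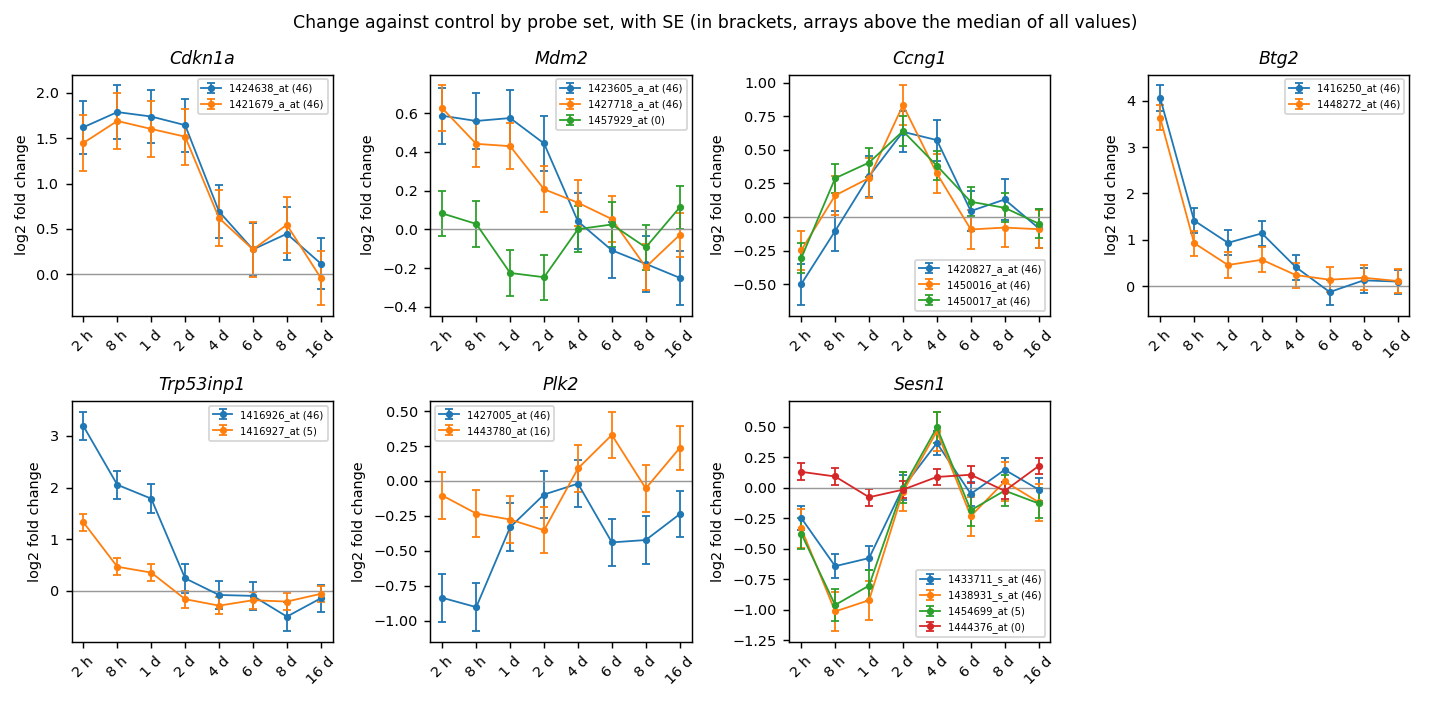
Log2 fold change against control with its SE (vertical axis) at 8 times after CCl4 (horizontal axis) for each probe set of the 7 genes with more than 1, with the number of arrays above the median of all values in brackets. The curves of Cdkn1a run close together, those of Ccng1 and Btg2 part at some times (Btg2 1.14 and 0.57 at 2 d), and the probe sets of Mdm2 and Sesn1 that exceed that median on 0 arrays stay near 0 or apart from the rest.

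Other genes of the p53 network were read in the same fit. Of 7 regulators of the p53 axis tested, 0 were called at 2 h, among them Mdm4, a p53 inhibitor related to Mdm2 (0.19 ± 0.09, adjusted p = 0.112), which was called at none of the 8 times. At 2 d Chek2, a DNA damage checkpoint kinase, was higher by 0.67 ± 0.10 (lower by -0.26 ± 0.10 at 1 d) and Ppm1d, a phosphatase that ends the p53 response, by 0.39 ± 0.14. Of 12 apoptosis targets tested 0 were higher and 4 lower at 2 h (Perp, Ei24, Bid and Zmat3, -0.50 to -0.35). At that time 6.41% of all genes were higher and 19.9% lower. At 1 d 4 were higher and 3 lower, and at 2 d 4 were higher and 2 lower, near the shares over all genes (25% and 25.1% at 1 d, 21.1% and 18.9% at 2 d). Zmat3, an RNA-binding protein, was at 0.72 ± 0.13 and 0.65 ± 0.13 at these times and Apaf1, the apoptosome scaffold, at 0.60 ± 0.13 and 0.84 ± 0.13. The median of the list was -0.20 at 2 h and 0.10 at 2 d, beside -0.03 for all genes at both times, and no called member reached 2-fold at 2 h, 1 d or 2 d.

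Among 6 other arrest targets Plk3, a stress-responsive polo-like kinase, was 8.73-fold higher at 2 h (10.35 against 7.23 in controls, 3.12 ± 0.26), the only call of the list at that time. Ccng2 and Btg1, relatives of Ccng1 and Btg2, were higher at 8 h (1.58 ± 0.35 and 1.27 ± 0.23) and 1 d (1.48 ± 0.35 and 1.31 ± 0.23). Ckap2, a spindle protein, was higher at 2 d (1.47 ± 0.16). Of 10 DNA repair and nucleotide supply targets 0 were higher and 1 lower at 2 h, and 4 higher and 2 lower at 2 d, with Pcna, the replication clamp, at 10.88 at 2 d against 8.80 in controls (2.08 ± 0.16, adjusted p = 3.74e-14). Of 9 metabolic and antioxidant targets 2 were higher and 1 lower at 2 h, and 1 was higher and 3 lower at 2 d. Over all genes 6.41% were higher and 19.9% lower at 2 h, and 21.1% and 18.9% at 2 d. With lists this short, the counts of the repair and metabolic targets are not read as a result beside those shares. Ddit4, an mTORC1 inhibitor, was 7.44-fold higher at 2 h (2.90 ± 0.25) and 2.2-fold at 8 h (1.14 ± 0.25). Dcxr, a xylulose reductase, and Gpx1, a glutathione peroxidase, were lower at 1 d (-1.85 ± 0.20 and -1.05 ± 0.11).

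**Figure D5:**
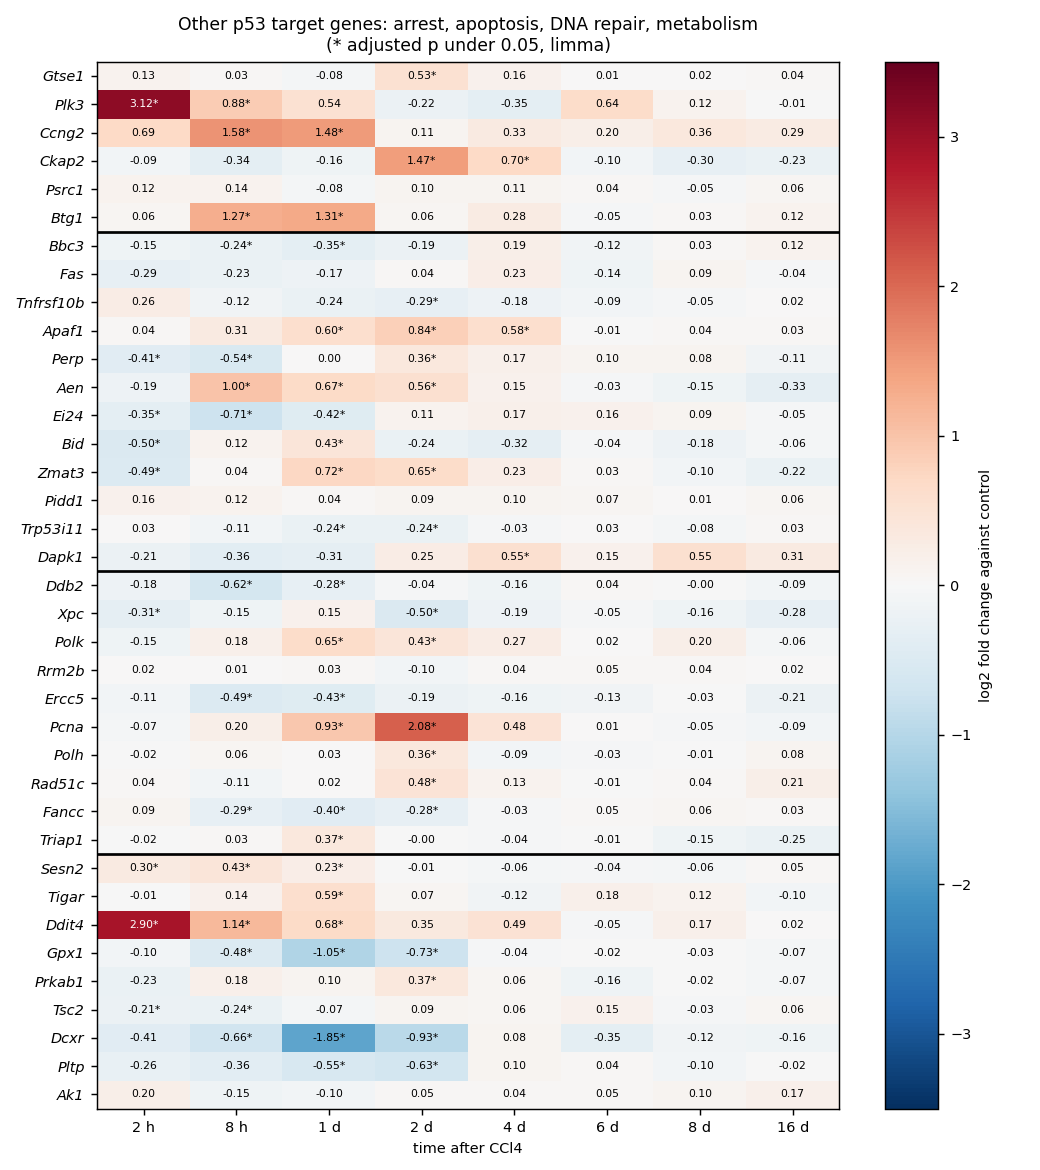
Log2 fold change against control (colour and printed value) of 37 other p53 target genes (vertical axis, in blocks for arrest, apoptosis, DNA repair and metabolism) at 8 times after CCl4 (horizontal axis), with an asterisk where the adjusted p is under 0.05. Plk3 (3.12) and Ddit4 (2.90) stand out at 2 h and Pcna (2.08) at 2 d.

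Relatives of the listed genes were read beside them. Of 20 tested 8 were higher and 1 lower at 2 h, 11 and 3 at 8 h, 10 and 2 at 1 d and 5 and 0 at 2 d. Over all genes 6.41%, 17.7%, 25% and 21.1% were higher at these times, so the count higher at 2 d is near that share. The shares of all genes called lower were 19.9%, 24.2%, 25.1% and 18.9%. Gadd45g and Gadd45b, paralogs of Gadd45a, were 19.1-fold and 3.01-fold higher at 2 h (4.25 ± 0.57 and 1.59 ± 0.20), and Gadd45g was still 2.65 ± 0.57 higher at 8 h and 1.85 ± 0.57 at 1 d. Phlda1, a relative of Phlda3, was 3.68-fold higher at 2 h and 2.86-fold at 8 h. Mcl1, an anti-apoptotic Bcl2 relative, was 2.87-fold higher at 8 h and 2.02-fold at 1 d, and Plk1, a mitotic relative of Plk2, 3.22-fold at 2 d. Lists overlap in Plk3, Ccng2, Btg1, Sesn2 and Plk1.

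Immediate early genes, which respond to signals without new protein, were high at the time when Btg2, Gadd45a and Trp53inp1 were highest. All 12 tested were higher at 2 h (median 2.47), 7 at 8 h, 9 at 1 d (1 lower) and 8 at 2 d. The shares of all genes called higher at these times were 6.41%, 17.7%, 25% and 21.1%, and 25.1% were lower at 1 d. Their mean log2 value was 9.23 to 10.37 at 2 h, against 6.55 to 6.94 in controls. Atf3 was 32-fold (5.00 ± 0.32), Fos 44.6-fold (5.48 ± 0.38) and Jun 31.7-fold (4.99 ± 0.40) higher at 2 h, and Egr1 19.2-fold. At 8 h Atf3, Klf6 and Myc were highest (3.55, 3.44 and 2.97), at 1 d Ier3 (3.15) with Klf6, Atf3 and Myc (2.11 to 2.50), and at 2 d Egr1 and Fos (2.40 and 2.38), with Ier3 and Jun at 1.66 and 1.41. Whether these signals have a part in the changes of the p53 targets was not tested.

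Cell cycle genes that p53 represses through p21 were set beside Cdkn1a. Of 17 tested 1 was higher at 2 h (Rrm2, a ribonucleotide reductase subunit, 1.45 ± 0.22) and 0 lower, and Rrm2 was still 1.00 ± 0.22 higher at 8 h, where 2 others were lower. At 2 d 16 were higher and 0 lower, with a list median of 2.68, and at 4 d 11 were higher, with a median of 0.96. The shares of all genes called higher were 6.41% at 2 h, 21.1% at 2 d and 4.74% at 4 d. Called lower were 19.9% at 2 h, 24.2% at 8 h and 18.9% at 2 d. Birc5 (survivin) was 23.2-fold higher at 2 d (4.54 ± 0.27), Mki67, a proliferation marker, 18.5-fold (4.21 ± 0.19), Rrm2 15.4-fold (3.94 ± 0.22) and Mcm5, a replicative helicase subunit, 14.7-fold (3.87 ± 0.26). The mean log2 value of the list was 7.30 to 8.54 at 2 d, against 5.57 to 5.95 in controls. Cdkn1a was thus 3.13-fold above control at the same time as these genes were highest, and whether both are high in the same cells was not tested.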

How the data were processed

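Liver RNA was measured on 46 Affymetrix mouse genome arrays. The authors deposited log2 expression values, for which the submitters' processing notes list RMA and oligo 1.52.0. RMA scales the probe intensities of all arrays to 1 distribution before probe sets are summarized, which can hide a change shared by most genes. The deposited probe set values did not share 1 distribution. Quantile normalization of them moved the limma calls at 2 h from 848 higher and 2638 lower to 1153 and 1890. Scan dates are not given in the sources used here.

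Of 45101 probe sets, 34945 named 1 gene and were used. Genes were tested where the probe set with the highest mean was above 5.55823, the median of the whole table, on 5 arrays or more. All arrays entered 1 limma fit (limma 3.58.1, R 4.3.3, 37 residual degrees of freedom) of group means with lmFit and eBayes. P-values were adjusted by Benjamini-Hochberg over the 13239 genes within a contrast and called under 0.05. The fit was tested on simulated data. The members and gene lists (p53 regulators and targets, relatives, immediate early and cell cycle genes, cell type markers) were chosen with earlier results of these data known. Named list genes are the up to 4 largest called changes of at least 2-fold at 2 h, 8 h, 1 d and 2 d, with Mdm4 always. Other apoptosis genes, Chek2 and Ppm1d were named after their values were seen. Motifs were searched in RefSeq promoter windows. Alternatives were other scalings, probe set rules, filters, variance models, array weights, the Gapdh value as a covariate, a block for the replicate number, and leaving out arrays one by one. Plots used Python with matplotlib 3.10.9 and pandas 2.3.3.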

Additional observations from a re-analysis of the deposited data

Results flagged for a closer look

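Tests of the difference between times called 6 genes at 1 d against 2 h, where 60% of all genes tested differed. Ccng1 (0.80) and Plk2 (0.51) were higher at 1 d, and Btg2 (-3.12), Trp53inp1 (-1.41), Gadd45a (-2.72) and Sesn1 (-0.33) were lower, on the log2 scale. At 2 d against 2 h Ccng1 (1.13), Phlda3 (0.27), Plk2 (0.74) and Sesn1 (0.25) were higher, and Btg2 (-2.92), Trp53inp1 (-2.95) and Gadd45a (-3.89) were lower. There 59.4% of all genes tested differed, so the counts at both times are near the share over all genes.

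Single arrays stood far from the others of their group by Dixon's test in 6 of 81 groups, where chance gives about 1 in 20 groups. They were Mdm2 on array 5 at 2 d (7.76, the others 7.25 to 7.39), Ccng1 on array 2 at 8 d (8.37, the others 8.00 to 8.11) and Gadd45a on array 5 at 4 d (6.31, the others 5.24 to 5.49). The others were Plk2 on array 3 at 4 d (7.58, the rest 6.64 to 6.88), Phlda3 on array 2 at 6 d (6.93, the rest 7.19 to 7.25) and Trp53inp1 on control array 3 (8.97, the rest 9.56 to 9.74).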

How the results depend on the processing

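Of 126 comparisons (9 genes, 14 contrasts), 96 kept their call under 14 other settings and with each of 46 arrays left out, 30 changed it somewhere, and 0 called values changed sign. Counts moved by over 1.5 times as follows. Higher at 2 d against 2 h fell to 2 genes with quantile normalization, against 4. Lower at 2 h was 1 with cyclic loess normalization and with the Gapdh value as a covariate, against 2. Lower at 1 d was 2 with the mean of all probe sets and in fits of only the 2 groups compared, against 1. Higher at 1 d against 2 h was 1 with the mean of all probe sets, against 2. Higher at 16 d was 1 with array weights, against 0. With single arrays left out, higher at 4 d ranged from 1 (without array 3 at 4 d) to 3. The causes were not tested.

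The fit with a replicate block changed 1 call, Gadd45a at 4 d against 2 d (-0.983, adjusted p = 0.0422, against 0.0516), which 5 other settings and 10 of the 46 fits without an array also called. Deviations of same-numbered arrays correlated with a mean r of 0.0153, against -0.0036 for other numbers, and 12 of 46 arrays were closest to their own number, so the numbers were not taken to pair arrays. The fit without arrays 1 and 2 at 1 d was added after seeing the data. A fit without arrays 4 and 5 at 2 h was also run after seeing the data, and in it Cdkn1a was called lower at 1 d and at 2 d than at 2 h. It is not used and its values are not given, because those arrays had been picked for their low Cdkn1a level, although they resembled their group over all genes. The comparison of Cdkn1a between 2 h and the later times therefore rests on arrays at 2 h that differ widely, and the number of arrays limits it.

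Scalings moved the share of higher calls over all genes further in other comparisons. At 1 d against 2 h it was 66.6% with equal array medians, against 53.1%. At 2 d against 2 h it was 66.3% with equal medians and 43.4% with quantile normalization, against 54.8%. At 8 d it was 61.1% with quantile normalization, against 47.4%, but from very few calls (11 higher and 7 lower, against 9 and 10). At 16 d it was 14.7% to 54.2%, against 27.5% with the deposited values (55 higher and 145 lower).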
